A study of Mus musculus with 15 samples.

Results

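The genes described here are 10 that the small intestine uses to split sugars at the brush border, carry them across the enterocyte and handle fructose and glucose inside it. They were chosen by name and function, and the Ensembl identifiers of the deposited tables were matched to symbols. All 10 were found, out of 37620 gene identifiers in each table, and all 10 passed the filter on low counts in both cohorts.

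The data are RNA sequencing of the ileum of adult mice in 15 libraries. The study set out to find genes that depend on Rfx6, a transcription factor of hormone-secreting cells. Libraries labelled mutant came from Rfx6f/f mice carrying Vilin-CreERT2, a Cre driven by the promoter of villin, which is active throughout the intestinal epithelium and not only in hormone-secreting cells. Controls carried floxed Rfx6 and no Cre, and the protocol gives tamoxifen (10 mg per dose, by gavage) for the mice of all groups. Ileum was taken 8 days after tamoxifen (3 control libraries, all Rfx6f/f, and 4 labelled mutant) or 3 months after it (4 control, of which replicates 1 and 4 were Rfx6f/f and replicates 2 and 3 were Rfx6f/+, and 4 labelled mutant). No group carried Cre without homozygous floxed Rfx6, so effects of Cre and of Rfx6 loss cannot be told apart. The exact ages are not in the labels. The mice of the 2 times are different animals counted in separate tables, so time and cohort cannot be told apart.

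Library totals were 30452485 to 54468586 counts at 8 days and 26078462 to 36270306 at 3 months. Rfx6 was counted at 1.5 ± 0.133 CPM (counts per 1000000 counts, SD, n = 3) in controls and 1.71 ± 0.272 (n = 4) in libraries labelled mutant at 8 days, a log2 difference of 0.19 (SE 0.18, adjusted p = 0.867 by the edgeR quasi-likelihood test). At 3 months it was 1.59 ± 0.133 and 2.62 ± 0.526 CPM (n = 4 each), a log2 difference of 0.72 (SE 0.17, edgeR adjusted p = 0.0347), a call that stayed in 2 of 8 fits without 1 library. Counts over the whole gene were therefore not lower in the libraries labelled mutant, and the exons flanked by loxP sites were not looked at separately. For that reason they are called libraries labelled mutant throughout.

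Dietary starch and disaccharides are cut to single sugars by enzymes anchored in the brush border of enterocytes. Glucose and galactose then enter with sodium through SGLT1 (Slc5a1), fructose enters through GLUT5 (Slc2a5), and both can leave at the basolateral side through GLUT2 (Slc2a2). Ketohexokinase (Khk) starts fructose breakdown, while fructose-1,6-bisphosphatase (Fbp1) and glucose-6-phosphatase (G6pc) turn the carbon into free glucose. These genes are usually most active in the proximal small intestine and lower in the ileum. CDX2 is known to act at the sucrase-isomaltase promoter, and GATA4 is known to keep lactase and other proximal genes on in the jejunum.

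The promoters of 4 members are printed because these genes had the largest changes or, for lactase, a split between libraries. Each is the 250 bases before the RefSeq gene start on GRCm38.p6, read along the gene's strand, with capitals marking the letters searched for. For CDX2, a factor of intestinal identity, the searched letters were TTTATG, on both strands. For the GATA family, which includes the proximal factor Gata4, they were AGATAA on both strands. The E-box, a unit of the element that Mlxipl is known to bind, was searched as CACGTG, which reads alike on both strands. For HNF4, a factor of liver and gut epithelium, the core was CAAAGT on both strands. No matches to different motifs overlapped in these 10 promoters. Sucrase-isomaltase lies at chr3:72967864-72968113 on the minus strand, lactase at chr1:128328319-128328568 on the minus strand, Fbp1 at chr13:62888283-62888532 on the minus strand and Slc2a2 at chr3:28697653-28697902 on the plus strand.
Sis: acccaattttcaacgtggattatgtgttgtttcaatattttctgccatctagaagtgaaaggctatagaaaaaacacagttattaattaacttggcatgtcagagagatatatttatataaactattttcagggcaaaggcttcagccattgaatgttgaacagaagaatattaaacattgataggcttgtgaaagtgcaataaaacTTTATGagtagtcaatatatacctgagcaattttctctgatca
Lct: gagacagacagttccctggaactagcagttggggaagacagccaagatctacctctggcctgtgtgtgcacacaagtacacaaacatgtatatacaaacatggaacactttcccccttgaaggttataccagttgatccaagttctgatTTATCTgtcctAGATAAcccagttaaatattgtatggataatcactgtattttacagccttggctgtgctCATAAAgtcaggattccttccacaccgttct
Fbp1: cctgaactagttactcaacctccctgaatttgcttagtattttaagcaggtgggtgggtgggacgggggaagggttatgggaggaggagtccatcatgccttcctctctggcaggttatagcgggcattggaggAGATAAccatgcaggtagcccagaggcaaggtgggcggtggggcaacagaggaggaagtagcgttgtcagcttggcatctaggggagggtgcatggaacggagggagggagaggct
Slc2a2: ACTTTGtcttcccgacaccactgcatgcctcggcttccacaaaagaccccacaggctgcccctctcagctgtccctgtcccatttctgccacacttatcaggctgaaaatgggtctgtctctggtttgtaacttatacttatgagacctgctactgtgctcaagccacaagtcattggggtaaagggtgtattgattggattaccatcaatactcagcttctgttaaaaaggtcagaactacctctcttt
In Sis the capitals mark a CDX2 match at -43. In Lct they are a pair of GATA matches at -101 and -90, on opposite strands, and a CDX2 match at -31 on the opposite strand. In Fbp1 they are a GATA match at -116, and in Slc2a2 an HNF4 core on the opposite strand at -250. The CDX2 letters were in 2 of the 10 members' promoters and in 10.8% of all 32536 promoters of this length, the GATA letters in 3 of 10 and 9.97%, the E-box in 3 of 10 and 6.04%, and the HNF4 core in 2 of 10 and 12.6%. A match is a description of letters and shows no binding.

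At 3 months, 5 of the 10 genes were higher in the libraries labelled mutant: the disaccharidases Sis and Mgam, the exit transporter Slc2a2, and Khk and Fbp1. None was lower, and their increases ran from 1.74-fold (Khk) to 18.8-fold (Slc2a2). The background was 9.28% of the 17085 genes tested called in either direction, 4.96% higher and 4.32% lower, where a call is an adjusted p under 0.05 (Benjamini-Hochberg) in edgeR's quasi-likelihood test. At 8 days, Sis and Fbp1 were the members called, both higher, against a background of 0.0915% of 17493 genes, of which 0.0343% were higher and 0.0572% lower. At an unadjusted p under 0.05 the members were 5 of 10 at 8 days, beside 1540 of all 17493 genes, and 8 of 10 at 3 months, beside 5018 of all 17085. A log2 difference above 0 was seen in 9 of 10 members at 8 days and 10 of 10 at 3 months, against 49.3% and 51.2% of all genes. The median log2 difference of the 10 genes was 0.57 at 8 days and 0.94 at 3 months, beside -0.002 and 0.008 over all genes tested. The labels do not say whether each library came from 1 animal, so the p-values measure the spread between these libraries. In bulk tissue, fewer cells of a type and less RNA per cell cannot be told apart.

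**Figure D1:**
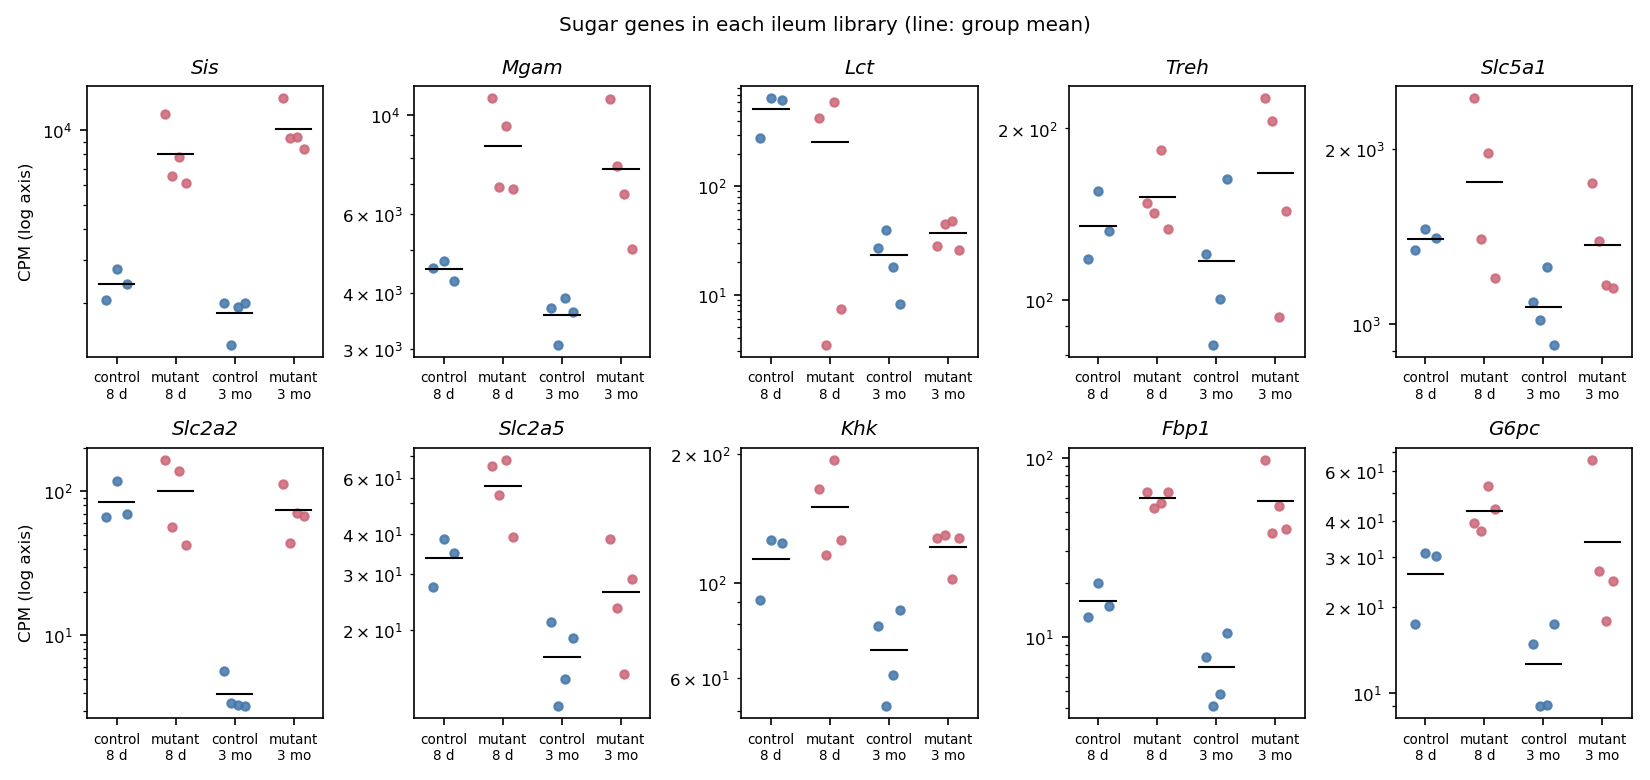
Level of each of the 10 genes in every library, in CPM on a log axis, with controls and libraries labelled mutant side by side at 8 days and 3 months; each point is 1 library and each line a group mean. Sis and Fbp1 separate the groups at both times, and Slc2a2 separates them at 3 months, where the controls sit between 3.24 and 5.71 CPM.

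Among the disaccharidases, sucrase-isomaltase (Sis), which splits sucrose and the branch points of starch, was the most changed. At 8 days it stood at 2062, 2749 and 2388 CPM in controls 1 to 3 and at 11577, 6521, 7808 and 6104 CPM in libraries labelled mutant 1 to 4. The groups did not overlap, with the lowest library labelled mutant above the highest control. The means were 2399.8 ± 344 and 8002 ± 2491 CPM (SD, n = 3 and 4), a 3.33-fold difference (log2 1.74, SE 0.23, edgeR adjusted p = 0.0433). This call was lost in 6 of 7 fits that left out 1 library (it remained without mutant replicate 1), where the log2 difference stayed between 1.5 and 1.85 and the adjusted p ran from 0.0071 to 0.309, and with 10 counts required in every library (0.0505). At 3 months the controls stood at 2002, 1364, 1942 and 1999 CPM and the libraries labelled mutant at 13451, 9307, 9403 and 8392 CPM. Again no library of one group fell within the other. The means were 1827 ± 309.8 and 10138 ± 2255 CPM (SD, n = 4 each), a 5.55-fold difference (log2 2.47, SE 0.19, edgeR adjusted p = 0.000567), and the call stayed in all 8 leave-one-out fits.

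Maltase-glucoamylase (Mgam), which releases glucose from starch fragments, moved less. At 8 days the controls had 4560.0, 4728 and 4262 CPM and the libraries labelled mutant 10868, 6898, 9415 and 6826 CPM. These groups did not overlap, yet the log2 difference of 0.91 (SE 0.17) did not pass the edgeR test (adjusted p = 0.195). At 3 months the controls had 3700.1, 3074, 3893 and 3639 CPM and the libraries labelled mutant 10831, 7668, 6660.1 and 5018 CPM. The means of 3577 ± 352 and 7544 ± 2448 CPM (SD, n = 4 each) differed 2.11-fold (log2 1.08, SE 0.22, edgeR adjusted p = 0.0231). That call was lost without control replicate 1, 2 or 3 (adjusted p from 0.0648 to 0.0691) and with the Rfx6f/f controls alone (0.189).

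Because both enzymes were high, the ratio of Sis to Mgam was taken per length of exon, a comparison added after the values were seen. In controls Sis stood below Mgam, at a ratio of 0.527 to 0.678 at 8 days and 0.517 to 0.64 at 3 months. In libraries labelled mutant the ratio was 0.967 to 1.24 and 1.42 to 1.95. The log2 ratio was higher by 0.82 at 8 days (exact two-sided permutation p = 0.0571, the smallest that 3 against 4 allows, adjusted 0.0761 over 8 ratios) and by 1.44 at 3 months (p = 0.0286, the smallest that 4 against 4 allows, adjusted 0.0572).

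**Figure D2:**
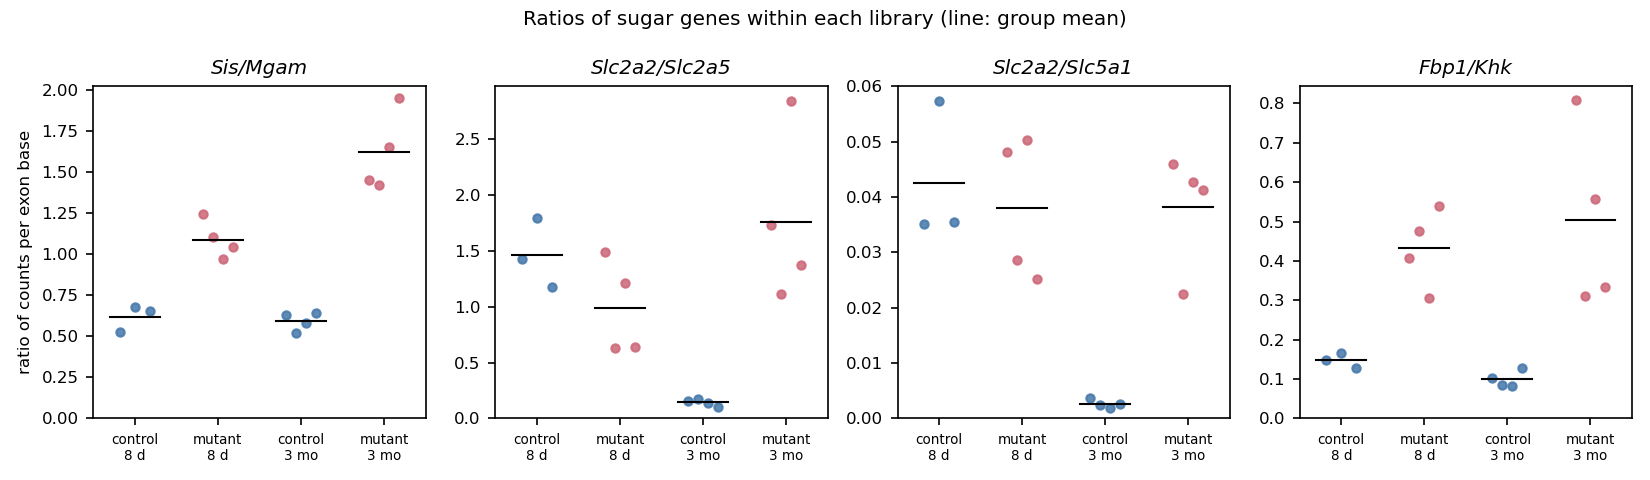
Ratios of Sis to Mgam, Slc2a2 to Slc2a5, Slc2a2 to Slc5a1 and Fbp1 to Khk per exon length in every library, on a linear axis from 0, at 8 days and 3 months, with 1 point for each library and a line at the group mean. The Sis to Mgam and Fbp1 to Khk ratios separate the groups at both times; the ratios of Slc2a2 do so at 3 months.

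Lactase (Lct), the milk sugar enzyme and a marker of the jejunum, did not pass the test at either time. At 8 days the controls had 282, 649 and 627 CPM and the libraries labelled mutant 431, 3.46, 594 and 7.35 CPM. Replicates 1 and 3 lay within the control range and replicates 2 and 4 far below it. The log2 difference was -1.0 (SE 1.34, edgeR adjusted p = 0.928). It was -3.24 with limma-voom, and without 1 library it ran from -1.81 (without replicate 3 labelled mutant) to -0.59 (without replicate 2) and -0.60 (without replicate 4), with no call in any of these fits. At 3 months Lct was low in all libraries, at 26.8, 39.8, 18.1 and 8.27 CPM in controls and 28.2, 45.3, 47.4 and 25.8 CPM in libraries labelled mutant, and the groups overlapped (log2 0.66, SE 0.42, edgeR adjusted p = 0.321).

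In 7 of 10 listed proximal genes, 8-day replicates 2 and 4 labelled mutant were both below the other 5 libraries. These replicates were singled out after their values were seen. The share of all genes with the same split was not counted, so the 7 of 10 has no background. The 3 exceptions were Apoa4 (448 and 1219.6 CPM, against 600.1 to 2535 in the others), Cyp2c65 (47.8 and 61.1, against 45.8 to 84.8) and Cbr1 (50.1 and 62.7, against 48.3 to 67.7). Gata4, outside that list, was at 12.1, 24.5 and 20.7 CPM in controls and at 17.9, 0.625, 24.1 and 1.27 CPM in libraries labelled mutant 1 to 4. Fabp1, a fatty acid carrier in the list, was at 93.7, 208 and 163 CPM and at 136, 10.6, 182 and 12.6 CPM. Replicates 2 and 4 were thus the lowest in Lct, Gata4 and Fabp1 alike, while their Sis (6521 and 6104 CPM) and Fbp1 (52.6 and 64.3 CPM) were above every control. Slc2a2 went with the former genes, at 56.1 and 42.3 CPM in replicates 2 and 4, below every control, and at 165 and 139 CPM in replicates 1 and 3, above every control. With replicates 1 and 3 alone, an alternative added after seeing the data, the log2 difference at 8 days was 2.02 for Sis (edgeR adjusted p = 0.0358), 1.17 for Mgam (0.0429), 1.92 for Fbp1 (0.0317), 0.85 for Slc2a2 (0.731) and -0.02 for Lct (0.998). Replicates 2 and 4 were left out after their low values were seen. They had the lowest Lct, Slc2a2, Sis and Mgam of the libraries labelled mutant, so the higher values of these genes follow from that choice. Whether the position of the sampled piece had a part in these values was not tested.

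**Figure D3:**
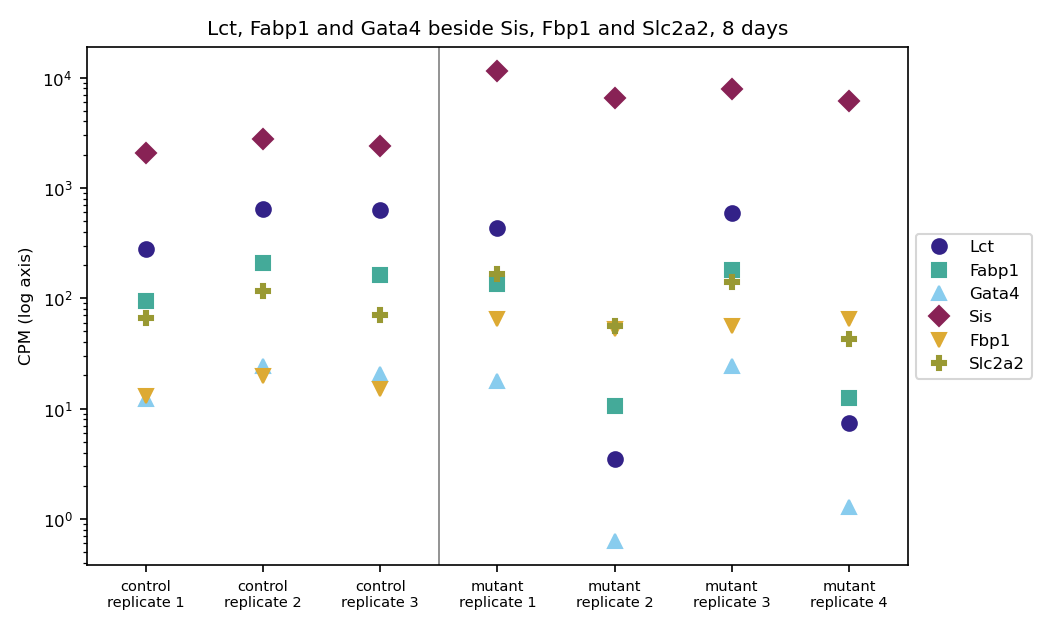
Levels of Lct, Gata4, Fabp1, Slc2a2, Sis and Fbp1 in the 7 libraries of 8 days, in CPM on a log axis, 1 point for each library. Replicates 2 and 4 labelled mutant have the lowest Lct (3.46 and 7.35 CPM), while their Sis and Fbp1 are above all controls.

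Trehalase (Treh), which splits the sugar of fungi and insects, ranged from 118 to 155 CPM in controls and from 133 to 183 CPM in libraries labelled mutant at 8 days, and from 83.4 to 163 and from 93.3 to 226 CPM at 3 months. The groups overlapped at both times (log2 0.17, SE 0.13 and 0.52, SE 0.29, edgeR adjusted p = 0.811 and 0.265). Treh shares 2 bases of exon with Phldb1 on the opposite strand in GENCODE M21. No other member overlaps another gene's exon there.

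Of the transporters, Slc5a1, the sodium-coupled glucose carrier of the brush border, was abundant in every library. At 8 days it stood at 1344, 1457 and 1408 CPM in controls and at 2445, 1401, 1971 and 1199.5 CPM in libraries labelled mutant, with overlap (log2 0.32, SE 0.22, edgeR adjusted p = 0.776). At 3 months it stood at 1092, 1018, 1252 and 923 CPM and at 1752, 1392, 1170.1 and 1156 CPM, also with overlap (log2 0.35, SE 0.15, edgeR adjusted p = 0.16).

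Slc2a2, the low-affinity carrier through which sugars leave toward the blood, gave the widest separation at 3 months. Controls stood at 5.71, 3.38, 3.3 and 3.24 CPM, from 164, 110, 85 and 92 counts, and libraries labelled mutant at 113, 44, 70.2 and 67 CPM. The lowest library labelled mutant was far above the highest control. The means were 3.91 ± 1.2 and 73.5 ± 28.7 CPM (SD, n = 4 each), an 18.8-fold difference (log2 4.23, SE 0.32, edgeR adjusted p = 0.000555), called in all 8 leave-one-out fits. At 8 days the controls stood at 66.2, 117 and 69.9 CPM, and the libraries labelled mutant at 165, 56.1, 139 and 42.3 CPM overlapped them (log2 0.25, SE 0.46, edgeR adjusted p = 0.953). The 3-month libraries labelled mutant thus lay within the range of the 8-day libraries, and the 3-month controls below it. These levels come from separately scaled tables.

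The difference between the effects of the label at the 2 times was 3.96 on the log2 scale for Slc2a2 (SE 0.61, edgeR adjusted p = 0.0179 in a fit of all 15 libraries). It was the 1 member of 10 called for that difference, where 0.785% of 17959 genes were called, 0.379% more positive at 3 months and 0.406% more negative. The call was lost without control replicate 2 of 8 days (adjusted p = 0.0565), without control replicate 3 of 3 months (0.0507), and with Rfx6f/f controls alone (3.78, adjusted p = 0.136). For the others the difference ran from -0.08 (Slc2a5) to 1.63 (Lct, SE 1.52), with 0.72 (SE 0.31) for Sis and 1.17 (SE 0.45) for Fbp1, and edgeR adjusted p from 0.194 to 0.994.

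Slc2a5, the fructose carrier of the brush border, had 27.4, 38.7 and 35 CPM in controls and 65.4, 52.8, 68.2 and 39.1 CPM in libraries labelled mutant at 8 days. The groups did not overlap, though the margin between 38.7 and 39.1 was narrow, and the log2 difference of 0.74 (SE 0.19) did not pass the edgeR test (adjusted p = 0.443). At 3 months it had 21.3, 11.6, 14.1 and 18.9 CPM against 38.6, 23.4, 14.6 and 29 CPM, with overlap at replicate 3 (log2 0.68, SE 0.29, edgeR adjusted p = 0.158). Per length of exon, Slc2a2 went from 0.101 to 0.172 times Slc2a5 in the 3-month controls to 1.11 to 2.84 times in the libraries labelled mutant, a log2 difference of 3.56 (exact two-sided permutation p = 0.0286, adjusted 0.0572). The ratio of Slc2a2 to Slc5a1 differed by 3.86 there (exact permutation p = 0.0286, adjusted 0.0572). At 8 days these ratios overlapped, with log2 differences of -0.65 and -0.19.

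Fbp1, the regulated step of gluconeogenesis, was called at both times. At 8 days the controls had 12.9, 19.9 and 14.9 CPM and the libraries labelled mutant 64.2, 52.6, 56.1 and 64.3 CPM. The groups were well apart. The SD was 22.8% of the mean in controls and 9.92% in libraries labelled mutant. The means of 15.9 ± 3.62 and 59.3 ± 5.89 CPM (SD, n = 3 and 4) differed 3.72-fold (log2 1.90, SE 0.15, edgeR adjusted p = 0.00342), and the call stayed in all 7 leave-one-out fits. At 3 months the controls had 7.76, 4.12, 4.78 and 10.5 CPM and the libraries labelled mutant 97.4, 38.2, 53.7 and 40.2 CPM. The means of 6.79 ± 2.93 and 57.4 ± 27.6 CPM (SD, n = 4 each) differed 8.46-fold (log2 3.08, SE 0.39, edgeR adjusted p = 0.00613). With the 2 Rfx6f/f controls alone the value was 2.65 and the call was lost (adjusted p = 0.0953).

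Khk, which phosphorylates fructose, ranged from 91.3 to 126 CPM in controls and from 116 to 194 CPM in libraries labelled mutant at 8 days (log2 0.40, SE 0.19, edgeR adjusted p = 0.612). At 3 months it had 79.4, 51.5, 60.8 and 86.5 CPM in controls and 127, 129.5, 102 and 127 CPM in libraries labelled mutant. The groups did not overlap, and the means of 69.5 ± 16.2 and 121 ± 13.2 CPM (SD, n = 4 each) differed 1.74-fold (log2 0.80, SE 0.16, edgeR adjusted p = 0.0226). The call was lost without control replicate 3 (adjusted p = 0.0713), without mutant replicate 1 (0.0501) and with Rfx6f/f controls alone (0.133). The ratio of Fbp1 to Khk per length went from 0.127 to 0.167 in controls to 0.306 to 0.539 at 8 days (log2 difference 1.53, exact two-sided permutation p = 0.0571, adjusted 0.0761) and from 0.083 to 0.128 to 0.311 to 0.808 at 3 months (2.25, p = 0.0286, adjusted 0.0572).

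G6pc, which frees glucose from glucose 6-phosphate, had 17.4, 30.9 and 30.1 CPM in controls and 39.5, 36.9, 53 and 44.2 CPM in libraries labelled mutant at 8 days. At 3 months it had 14.9, 9, 9.09 and 17.4 CPM against 65.6, 26.7, 17.8 and 24.6 CPM. At neither time did the groups overlap, although at 3 months the margin between 17.4 and 17.8 was narrow. The log2 differences of 0.73 (SE 0.20) and 1.42 (SE 0.41) did not pass the edgeR test (adjusted p = 0.46 and 0.0609).

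**Figure D4:**
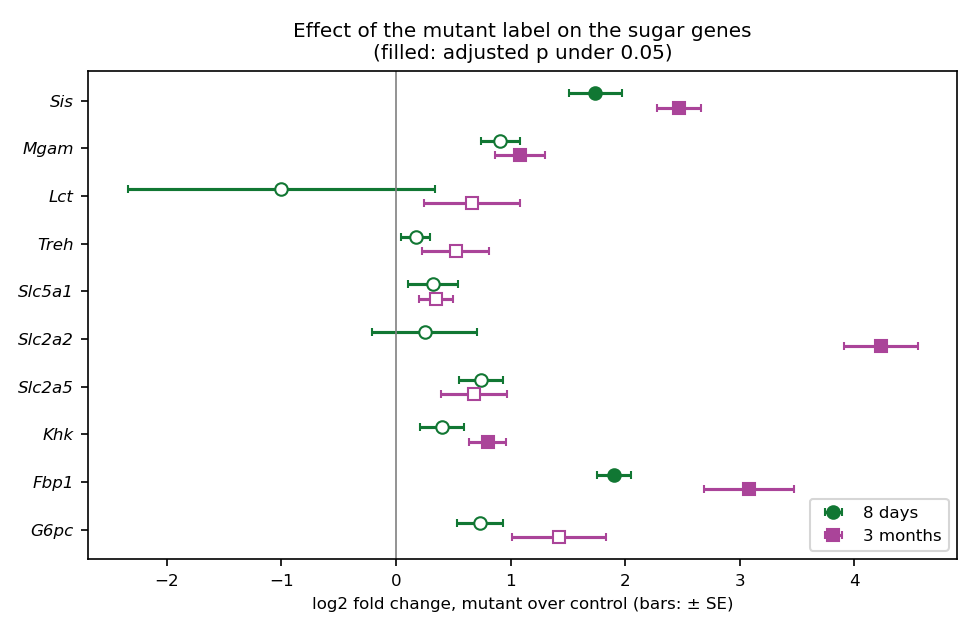
Log2 difference of each of the 10 genes, libraries labelled mutant over control, at 8 days and 3 months, with bars of 1 SE and filled points for calls at an adjusted p under 0.05. Slc2a2 is near 0 at 8 days (0.25) and at 4.23 at 3 months, while Sis and Fbp1 are called at both times.

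Counted over all members, 5 of 10 were higher in every library labelled mutant than in every control at 8 days, against 3.84% of all genes, and 6 of 10 at 3 months, against 9.7%. Sis, Mgam, Fbp1 and G6pc did so at both times, Slc2a5 at 8 days, and Slc2a2 and Khk at 3 months. Within the 3-month controls, the Rfx6f/f libraries were higher than the Rfx6f/+ libraries in Sis, Treh, Slc2a5, Khk, Fbp1 and G6pc. In Mgam, Lct, Slc5a1 and Slc2a2 the control genotypes overlapped. Sis stood at 2002 and 1999 CPM in Rfx6f/f and at 1364 and 1942 CPM in Rfx6f/+. Fbp1 stood at 7.76 and 10.5 CPM in Rfx6f/f and at 4.12 and 4.78 CPM in Rfx6f/+. With 2 libraries of each, the difference between control genotypes was not tested. The share of all genes separated in this way was not counted.

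Per length of exon (CPM per kilobase), Mgam was the most abundant member in controls, at 519 ± 27.1 at 8 days and 411 ± 40.4 at 3 months. Slc5a1 (342 and 261) and Sis (322 and 245) followed and overlapped each other at both times. In libraries labelled mutant Sis stood first, at 1072 ± 334 and 1358 ± 302, and its range overlapped that of Mgam, at 977 ± 228 and 867 ± 281. Among all genes ranked by this level, Sis went from place 152 in the 3-month controls to place 24 of 16270, and Slc2a2 from 13347 to 3756. Between the cohorts' controls, Lct went from place 4 of the 10 at 8 days (81.1 ± 32.1) to place 9 at 3 months (3.63 ± 2.09), with Slc2a2 last there at 0.679 ± 0.209.

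Among other genes of sugar handling, given by role, none was called at 8 days. Of 11 further fructose and galactose genes tested at 3 months, 2 rose and 1 fell, beside 4.96% of all genes called higher and 4.32% lower. The 1 of 11 that fell is near that share. Tkfc (triokinase), which acts on a product of fructose cleavage, rose from 110.3 ± 18.3 to 207 ± 25.9 CPM (log2 0.91, edgeR adjusted p = 0.00878). The median of these 11 was 0.10, beside 0.008 over all genes.

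Of 21 glycolysis genes tested at 3 months, 7 rose and none fell (median 0.24, 16 of 21 above 0), beside 4.96% of all genes called higher and 51.2% above 0. Of the 7, named after their values were seen, Gapdh kept its call in 1 of 8 fits without 1 library and Pfkfb2 in 0 of 8. The largest were Aldoc, an aldolase, from 6.89 ± 0.845 to 13.2 ± 1.51 CPM (log2 0.94, edgeR adjusted p = 0.00613), the pyruvate kinase Pklr (0.60, 0.0143), the isomerase Gpi1 (0.59, 0.00794) and the pyruvate kinase Pkm (0.56, 0.0117). Of 8 other genes of gluconeogenesis and glucose 6-phosphate, none was called (median 0.12), so Fbp1 was the one of this branch that passed. None of 8 other glucosidases was called either (median 0.02).

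Among 15 other sugar transporters tested, Slc2a8 rose, from 7.8 ± 1.16 to 11.2 ± 1.52 CPM (log2 0.52, edgeR adjusted p = 0.0497), with a median of 0.13 over the list. This call stayed in 1 of 8 fits without 1 library, and 1 of 15 is near the 4.96% of all genes called higher.

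Of 10 sugar-responsive regulators, 2 rose at 3 months, beside 4.96% of all genes called higher. Mlxipl encodes ChREBP, the carbohydrate-sensing factor known to act on fructose-handling and glycolytic genes. It stood at 47.7, 45.5, 46.6 and 58.6 CPM in controls and at 149, 116, 131 and 161 CPM in libraries labelled mutant, with no overlap (log2 1.49, SE 0.12, edgeR adjusted p = 0.000567). At 8 days it was at 125, 93.2 and 101 CPM and at 153, 135, 174 and 124 CPM, with overlap (0.46, adjusted p = 0.46). The difference between times was 1.01 (SE 0.19, edgeR adjusted p = 0.0419). Ppargc1a, a coactivator of gluconeogenic genes, rose as well (1.09, adjusted p = 0.0236).

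The enterocyte factors Hnf4a, Cdx2 and Gata4 did not pass the test at either time. Hnf4a differed by -0.02 at each time, Cdx2 by -0.04 and -0.25 (edgeR adjusted p = 0.955 and 0.132) and Gata4 by -0.80 and 1.37 (0.917 and 0.0883). Of 13 enterocyte transcription factors, Prdm1, which represses adult enterocyte genes in the suckling gut, was the one called, and it fell at 3 months (-0.61, adjusted p = 0.0369). That 1 of 13 is near the 4.32% of all genes called lower.

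Under scaling to epithelial genes the median of all genes was 0.167 at 8 days and 0.182 at 3 months, against -0.002 and 0.008 in the reported fits; under it the 15 genes of these pathway lists called at 3 months kept their direction and 13 their call, Prdm1 (-0.44, adjusted p = 0.0907) among those that lost it. With Rfx6f/f controls alone, 1 of the 15, Mlxipl, kept its call. Of the 8 fits without 1 library, Tkfc, Aldoc, Pklr, Gpi1, Pkm and Mlxipl kept their call in all 8, Ppargc1a in 5 and Prdm1 in 2.

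**Figure D5:**
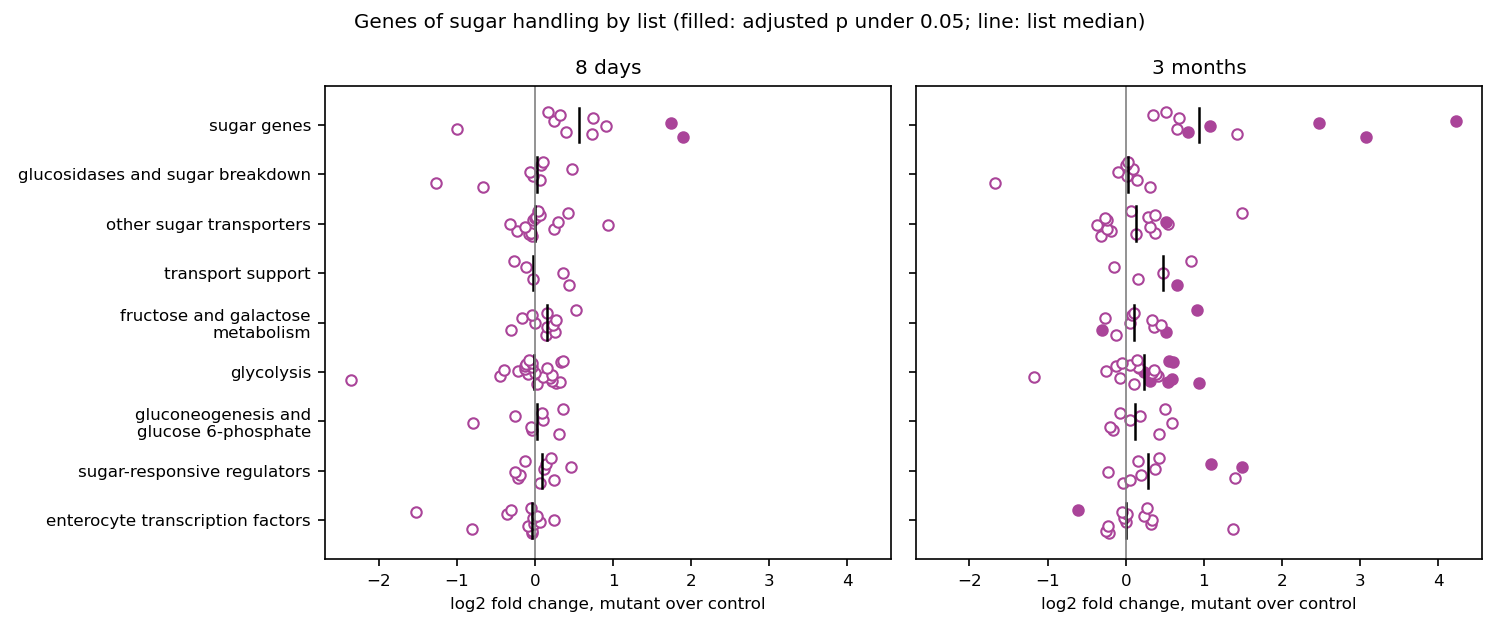
Log2 difference, libraries labelled mutant over control, of every tested gene in the lists at 8 days and 3 months; each point is 1 gene, and filled points passed at an adjusted p under 0.05. The top row holds the 10 sugar genes and the black lines are list medians. At 3 months 7 of 21 glycolysis genes and 2 of 10 regulators lie higher with a call, and at 8 days no call lies outside the top row.

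Of the markers of intestinal position, 1 of 10 proximal genes was called higher and 2 of 8 ileal genes lower at 3 months. Over all genes 4.96% were called higher and 4.32% lower, and the 1 of 10 is near the former share. The summed level of 10 proximal genes was 378 to 541 CPM in controls and 2284 to 4130.4 CPM in libraries labelled mutant, in the latter mostly Apoa4, an apolipoprotein (log2 3.42, edgeR adjusted p = 0.000717), the 1 called. The other 9 had log2 differences from -1.61 (Gkn3) to 1.22 (Fabp1), and none of the 10 was at 0. The sum of 8 ileal genes was 4862 to 5699 CPM and 3134 to 5173 CPM, which overlap. Those that fell were the bile acid carriers Fabp6 (-1.44, adjusted p = 0.00873) and Slc51b (-0.70, 0.00613). Of the 6 without a call, Fgf15 (-1.63, adjusted p = 0.0584), Slc10a2 (-0.55) and Slc51a (-0.37) had values below 0, and Muc3 (0.42), Clec2h (0.35) and Slc28a2 (0.71) above 0. The median of the 8 was -0.46. Fabp6 stood at 2006, 2708, 2439.7 and 2536 CPM in controls and at 960.4, 871, 572 and 1179 CPM in libraries labelled mutant. At 8 days the proximal sums overlapped (1065 to 2904 and 573 to 3021 CPM), as did the ileal ones (6156 to 6603 and 5249.7 to 6484 CPM). The part of position in the higher Sis, Slc2a2 and Fbp1 was not tested.

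Markers of other cells were summed in the same way. Over all genes tested, 4.32% were called lower at 3 months. Log2 differences above 0 were seen in 49.3% of all genes at 8 days and 51.2% at 3 months. Summed epithelial markers were 17615 to 19505 and 15917 to 17658 CPM at 8 days and 16427 to 18761 and 14622 to 16872 CPM at 3 months, with none of 11 called and log2 differences above 0 in 0 of 11 at 8 days and 3 of 11 at 3 months. Villus enterocyte markers were 16684 to 21626 and 15779.9 to 26481 CPM at 3 months. Of these, 1 of 12, Mep1b, was called lower, near the 4.32% of all genes. T cell markers were 82.3 to 99.8 CPM in the 3-month controls and 29.6 to 66 CPM in libraries labelled mutant, with 3 of 6 called lower, 0 of 6 above 0 and a median log2 difference of -1.15. B cell markers were 89.5 to 201 and 11.8 to 132 CPM, with none of 6 called, 0 of 6 above 0 and a median of -1.31. At 8 days the B cell markers were 14.7 to 45.7 CPM in controls and 18.2 to 253 CPM in libraries labelled mutant (6 of 6 with log2 differences above 0, median 2.61, none called), and the T cell markers 32.4 to 46 and 37.8 to 69.5 CPM, with none called. Slc2a2, Fbp1, G6pc and Khk are also liver genes, and Alb, the defining liver gene, had 2 to 7 counts in each 3-month library. The summed level of 10 liver markers was 4.89 to 8.62 CPM in those controls and 7.72 to 17 CPM in libraries labelled mutant. Smooth muscle markers were 1803 to 2827 CPM in controls and 2205 to 3592 CPM in libraries labelled mutant at 8 days, and 1549 to 1879.9 and 1689.6 to 3058 CPM at 3 months. All 6 of them had log2 differences above 0 at both times (medians 0.35 and 0.37), with none called. A list of 6 kidney tubule markers summed to 1799 to 2019 and 2124 to 2372 CPM at 8 days and to 439 to 1296 and 819 to 2168 CPM at 3 months, with none of the 3 tested called. Nearly all of that sum was Cubn, which the ileum also expresses (means of 1924 and 2242 CPM at 8 days, 762 and 1245 CPM at 3 months), and the other 5 markers had at most 1.66 CPM in any library. Exocrine pancreas markers ranged from 54.1 to 1616 CPM in the controls and from 29.5 to 475 CPM in the libraries labelled mutant at 3 months, and from 0.589 to 137 and from 0.488 to 242 CPM at 8 days. The part of the immune, muscle, kidney and pancreatic markers in these results was not tested.

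By Pearson correlation of log2 CPM over the 15 libraries, given as a description since the libraries share the label and cohort, the 3 genes most like Sis among 13250 were Prkag2 (r = 0.951), Stxbp5l (0.93) and Esr1 (0.925). Those most like Fbp1 were Esr1 (0.956), Gtf2b (0.955) and Cyp2u1 (0.953), and those most like Slc2a2 were Adipor2 (0.947), Ptpru (0.937) and Camk1d (0.936). Cyp2u1 had log2 differences of 1.84 at 8 days and 2.43 at 3 months (edgeR adjusted p = 0.00739 and 0.000567), and Stxbp5l 1.61 and 3.10 (0.00786 and 0.000102), each called at both times. The other 6 were called at 3 months and not at 8 days, which does not itself compare the times. Of these, Esr1 had 1.01 and 1.86 (adjusted p = 0.0657 and 4.98e-05), Prkag2 0.45 and 1.08 (0.109 and 0.00408), Gtf2b 0.44 and 0.79 (0.443 and 0.0109) and Adipor2 0.20 and 0.90 (0.666 and 0.00141). Ptpru had -0.0 and 1.0 (edgeR adjusted p = 1 and 0.00472) and Camk1d 0.06 and 0.41 (0.88 and 0.0102).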

How the data were processed

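The authors deposited unnormalized counts of reads for each Ensembl gene, with 1 table per time. Libraries were ribosomal RNA-depleted total RNA, per the labels' protocols; the molecule field says polyA RNA. The submitters' processing notes name bcl2fastq 2.17.1.14, Bowtie 1.0.0, TopHat2 2.0.10, Bowtie2 2.1.0, HTSeq 0.6.1 and the build mm9. The annotation release and strand setting are not given in the sources used here. RNA was extracted by either of 2 methods, and the labels do not say which sample had which.

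Symbols came from GENCODE M21 (GRCm38) for 32897 of 37620 identifiers (87.45%), and unnamed ones held 0.675% of counts. No identifier rows were summed. Within a time, filterByExpr (minimum count 10) and TMM scaling preceded a quasi-likelihood F test in edgeR 4.0.16 (legacy method, R 4.3.3), with Benjamini-Hochberg adjustment over all genes tested and a call at an adjusted p under 0.05. SE is the absolute log2 difference over the square root of F. The difference between times was a contrast in a fit of all 15 libraries in 4 groups. CPM uses the TMM-scaled library size, and levels per length divide it by kilobases of merged M21 exons. All tests are two-sided. Promoters came from the RefSeq table of GRCm38.p6, which held all 10 genes. In libraries of 26078462 to 54468586 counts, 3 counts are 0.115 to 0.0551 CPM.

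The members and lists were chosen with earlier results of these data known, so no list count is independent support. Named genes were the 10 members, up to 4 called genes of the largest size from each list, Hnf4a, Cdx2, Gata4, Mlxipl, Rfx6, the markers needed for ranges, and 3 most similar genes for Sis, Fbp1 and Slc2a2. Results for some genes that met this rule are not reported here. The ratios were chosen after their values were seen. Alternatives were DESeq2 1.42.0, limma-voom (limma 3.58.1), other scalings, other filters, Rfx6f/f controls alone, a joint fit, fits without each library, and the 8-day replicates 1 and 3 labelled mutant alone. The tests were tried on simulated counts first, where DESeq2 made a larger share of false calls than edgeR.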

Additional observations from a re-analysis of the deposited data

Results flagged for a closer look

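Among 30 groups of 4 libraries checked for 1 library far from the other 3, 3 stood out, where 1 in 20 (1.5 groups) would by chance. Sis was 1364 CPM in control replicate 2 of 3 months, against 1942 to 2002 CPM in the other controls. Slc2a2 was 5.71 CPM in control replicate 1 of 3 months, against 3.24 to 3.38 CPM. Khk was 102 CPM in replicate 3 labelled mutant of 3 months, against 127 to 129.5 CPM. The groups of 3 libraries at 8 days were not checked in this way.

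The effect of the mutant label on Slc2a2 differed between the times by 3.96 on the log2 scale (SE 0.61, edgeR adjusted p = 0.0179), from 0.25 at 8 days to 4.23 at 3 months. All 4 libraries labelled mutant of 3 months were above all controls of that time, while the groups of 8 days overlapped.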

How the results depend on the processing

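No paired analysis was possible because the labels give no replicate numbers, and those used here follow accession order. All 176 alternative values at 3 months, counted over the members and Rfx6, kept their direction. Among them 15 calls were lost, 7 of these for Rfx6, and 5 were gained. Over the same genes, 1 of 165 values turned direction at 8 days, and 13 of 253 for the difference between times. Genes called at 8 days were 16, and 178 with DESeq2, 35 with epithelial scaling (71.4% higher), 27 without a filter, 25 in a joint fit and 8 to 200 without 1 library. Members called at 8 days were 2, and 5 with DESeq2, 1 with 10 counts required in every library and 1 to 3 without 1 library. Genes called at 3 months were 1586, and 2983 with DESeq2, 3176 with epithelial scaling (90.2% higher), 36 with Rfx6f/f controls alone and 391 to 1521 without 1 library. Members called were 5, and 8 with epithelial scaling, 2 with Rfx6f/f controls alone (Sis and Slc2a2) and 3 to 5 without 1 library. For the difference between times 141 genes were called, and 1017 with DESeq2, 41 with limma-voom, 42 with epithelial scaling, 223 without a filter, 248 with the strict filter, 5 with Rfx6f/f controls alone, 14 with the 8-day replicates 1 and 3 alone and 10 to 749 without 1 library. Members called for it were 1, and 0 with Rfx6f/f controls alone, or 0 to 1 without 1 library. Slc2a2 at 8 days ran from -0.09 (without replicate 1 labelled mutant) to 0.56 without 1 library, and to 0.85 over all alternatives. Between times, Mgam turned to -0.10 and Slc5a1 to -0.31 with the 8-day replicates 1 and 3 alone, and without 1 library Mgam ran from -0.08 to 0.29, Slc5a1 from -0.14 to 0.21 and Slc2a5 from -0.32 to 0.15; the cause was not tested. Mgam at 8 days gained a call with DESeq2 (adjusted p = 1.93e-05), epithelial scaling (0.0416), the 8-day replicates 1 and 3 alone (0.0429) and without replicate 1 labelled mutant (0.0445), and Slc2a5 (0.0185) and G6pc (0.0313) with DESeq2. At 3 months Slc5a1 (0.0226) and Slc2a5 (0.0402) gained one with epithelial scaling, and G6pc with DESeq2 (0.0227), epithelial scaling (0.0176) and the joint fit (0.0216).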
